A study of Caenorhabditis elegans with 12 samples.

Results

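Genes of the cilium and their regulator *daf-19* were followed in dissected *C. elegans* gonads that lacked the histone methyltransferase SET-2 for increasing numbers of generations. The set holds 35 named genes, chosen by name from 45461 genes, transcripts and pseudogenes with counts. It comprises *daf-19* and 34 genes, called ciliary genes here, for intraflagellar transport, its motors, the BBSome, the transition zone and other roles linked to cilia. Not all of them encode parts of the cilium itself. The table of names gave 32 of them directly, and *nphp-1*, *nphp-4* and *che-10* were found by gene ID under the older names *nph-1*, *nph-4* and *dyf-14*.

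A cilium is built by intraflagellar transport (IFT), in which kinesin motors carry particles of IFT-B and IFT-A proteins to the tip and dynein brings them back. The BBSome rides on these particles and moves membrane proteins, and the transition zone forms a gate at the base. In *C. elegans*, cilia are found on sensory neurons, whereas germ cells and the crawling sperm have none. DAF-19 is an RFX-family transcription factor that binds X-box motifs in promoters of genes for cilia and switches them on in ciliated neurons.

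RNA was sequenced from gonads of animals of strain PFR541 at 25°C on day 1 of adulthood, in 4 groups with 1 sample in each of 3 lineages. P0 animals carried *set-2*(*bn129*) over the chromosome III balancer *qC1*(*qIs26*), which the other groups lack. F2 fertile, F4 fertile and F4 sterile animals were homozygous for *set-2*(*bn129*). Every group therefore carries at least 1 mutant copy, and no wild-type sample entered the comparison. Each sample pooled gonad arms of many animals. Balancer sequence near a chromosome III gene and the change in *set-2* dose cannot be told apart. Within the set this concerns *kap-1*, *klp-20*, *dyf-2*, *bbs-5*, *osm-12* and *mks-1*.

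Totals on genes lay between 3456068 and 10335794 counts per sample. Values are given as CPM, counts scaled to 1000000 counts of TMM-adjusted library size, in the order of lineages 1, 2 and 3. The *set-2* transcript lay between 123 and 157 CPM in the 9 homozygous samples, against 186 to 197 CPM in P0. Levels in whole gonads do not show whether more cells made a transcript or each cell made more, and the cell types were checked with marker lists given with the results. Library names carried 3 prefixes, and lineage 3 was the only lineage under a single prefix.

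*daf-19* (F33H1.1, WS220 chromosome II, 10157462 to 10169262) stood higher in each successive group of every lineage. Its level was 10.1, 5.96 and 9.11 CPM in P0, 22.5, 29.4 and 16.2 CPM in F2 fertile, 44.7, 37.4 and 29.6 CPM in F4 fertile, and 62.7, 80.6 and 73.8 CPM in F4 sterile gonads. No 2 groups overlapped. The log2 fold change against P0 was 1.38 (SE 0.24) in F2 fertile, 2.08 (SE 0.24) in F4 fertile and 3.03 (SE 0.24) in F4 sterile gonads, the last an 8.15-fold difference. F4 sterile gonads lay above F4 fertile gonads by 0.95 (SE 0.22) on the log2 scale. *daf-19* was placed in the set as a factor known to rise in these samples, so that these values are a description without a test. Counts per gene do not tell *daf-19* isoforms apart.

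The difference from P0 was present within each lineage and within each library-name prefix that held both groups. The ratio of F4 sterile to P0 was 6.20, 13.5 and 8.09 in lineages 1, 2 and 3. Under the prefix SSAK010 it was 7.97, from F4 sterile lineage 2 and P0 lineage 1. Under SSKK007 it was 9.79, from F4 sterile lineage 3 and the mean of P0 lineages 2 and 3. A level above the preceding group at each step in all 3 lineages was seen for 3.73% of tested genes. None of the 34 ciliary genes had that order in all 3 lineages, and *che-3*, *che-14*, *dyf-6*, *daf-10* and *bbs-2* had it in 2.

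**Figure D1:**
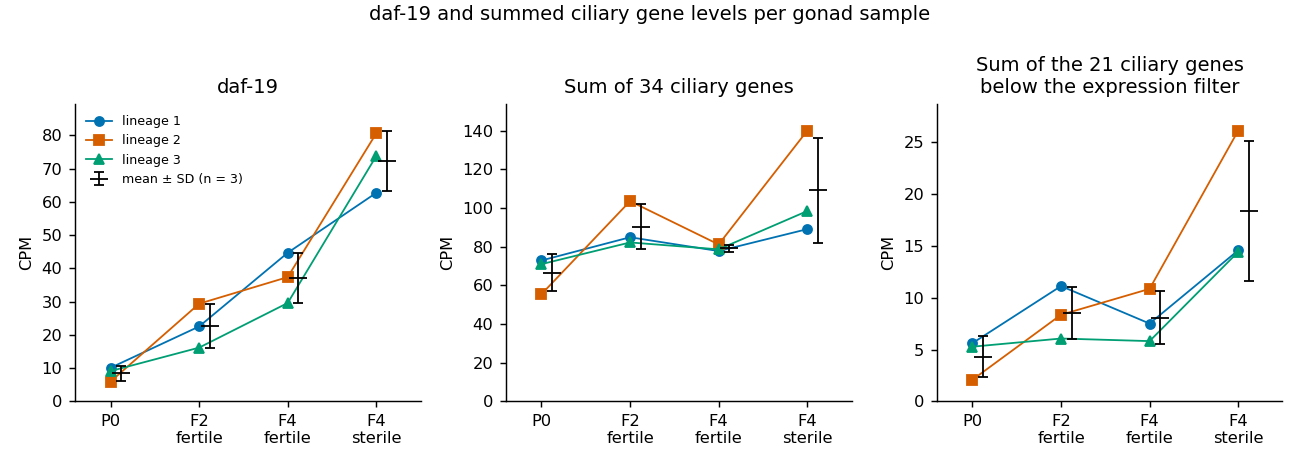
Level in CPM of *daf-19* (left), summed CPM of the 34 ciliary genes (middle) and of the 21 ciliary genes below the expression filter (right), by group. Points joined by lines are the 3 lineages, and bars show mean ± SD (n = 3); *daf-19* averages 8.40 CPM in P0, 22.7 CPM in F2 fertile, 37.2 CPM in F4 fertile and 72.4 CPM in F4 sterile gonads, and its groups do not overlap, whereas the sums of the 34 genes overlap between F4 sterile and F2 fertile gonads and are lower in F4 fertile than in F2 fertile gonads.

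The 34 ciliary genes were weakly expressed in gonads of every group. Together they made up 66.5 ± 9.56 CPM in P0, 90.2 ± 11.6 CPM in F2 fertile, 79.2 ± 1.77 CPM in F4 fertile and 109.2 ± 27.1 CPM in F4 sterile gonads (SD, n = 3 each). The F4 sterile sum came to 89.1, 139.995 and 98.4 CPM, so that lineage 2 was the highest. The P0 sum was 72.9, 55.5 and 71.0 CPM, below each of the F4 sterile samples. *klp-20*, *osm-3* and *osm-1* supplied most of the P0 sum, and without these genes it was 23.9 CPM in P0, 41.9 CPM in F2 fertile, 39.2 CPM in F4 fertile and 68.6 CPM in F4 sterile gonads.

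Of the 34, 13 passed edgeR's filter on low counts and 21 did not. In F4 sterile against P0 gonads, 7 were higher at an adjusted p under 0.05 by edgeR's quasi-likelihood test and 0 were lower, against 26.4% of all tested genes higher and 16.8% lower. The higher genes were *kap-1*, *klp-11*, *che-3*, *bbs-5*, *nphp-1*, *che-10* and *che-14*. By the unadjusted p of edgeR the counts were the same, 7 and 0, against 29.8% and 20.9%. DESeq2 called 8 higher and 0 lower, against 17% and 12.1% of the 13335 genes it gave an adjusted p. Its 8 lacked *bbs-5* and held *dyf-7* and *dyf-11*, which did not enter the edgeR test. Lineage 2 gave the highest F4 sterile level of each of the 7 but *nphp-1*, and without that sample 5 were higher, against 19.9% of the genes tested then. A gene that is nearly silent in P0 can pass the filter through the F4 sterile samples alone, so that the 7 are read gene by gene and not as a share of the 13.

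Counting all 34 genes, every F4 sterile sample lay above every P0 sample for 18, against 14.5% of all genes with at least 1 count and 29.7% of tested genes. Among the 21 genes below the filter this held for 10. When every gene with at least 1 count entered the fit, 11 of the 34 were higher and 0 lower, against 8.94% and 6.15% of all genes. The median log2 fold change of the 34 was then 1.01, and that of all genes was 0. These shares are not matched for expression level, and the list was drawn up with results of these samples known.

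**Figure D2:**
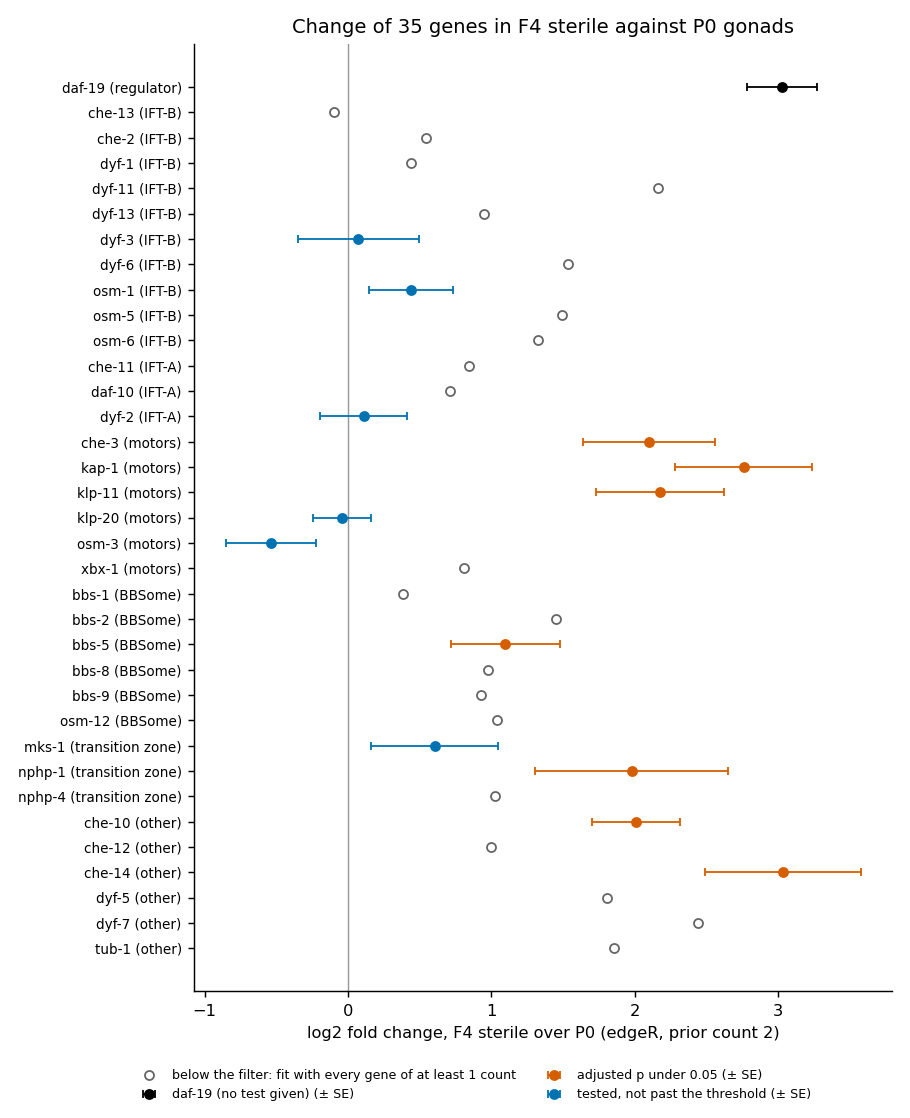
Log2 fold change of F4 sterile over P0 gonads (horizontal axis) for *daf-19* and the 34 ciliary genes, grouped by role from top to bottom. Filled points with bars (± SE) come from the fit of tested genes. Open points come from the fit of every gene with at least 1 count, where values of genes near 0 counts depend on the prior count. In that wider fit, of which only the open points are drawn, 31 of the 34 ciliary genes lie above 0 and 3 below. Of all 26894 genes in it, 13241 lie above 0 and 10748 below.

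Of the 6 motor genes 3 were higher in F4 sterile than in P0 gonads, *kap-1*, *klp-11* and *che-3*. Heterotrimeric kinesin-II consists of the motor subunits KLP-11 and KLP-20 and the accessory subunit KAP-1, and moves IFT particles along the cilium. *kap-1* (F08F8.3, chromosome III) had 0.562, 0.298 and 0 CPM in P0, 2.68, 1.90 and 1.12 CPM in F2 fertile, 1.79, 1.70 and 1.01 CPM in F4 fertile, and 2.91, 4.79 and 4.39 CPM in F4 sterile gonads. All homozygous samples thus lay above all P0 samples. The log2 fold change of *kap-1* in F4 sterile against P0 gonads was 2.76 (SE 0.48, adjusted p = 0.00054).

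*klp-11* (F20C5.2, chromosome IV) stood at 0.843, 0.596 and 0.959 CPM in P0, 2.68, 3.04 and 1.80 CPM in F2 fertile, 2.32, 1.60 and 1.01 CPM in F4 fertile, and 3.07, 7.94 and 3.14 CPM in F4 sterile gonads. It was higher in F4 sterile than in P0 gonads by 2.18 on the log2 scale (SE 0.45, adjusted p = 0.0017), and lineage 2 was far above the other lineages in F4 sterile. The third subunit gene, *klp-20* (Y50D7A.6, chromosome III), differed from both in level and in change. It had 23.7, 15.2 and 19.4 CPM in P0, and 19.01, 16.8 and 21.5 CPM in F4 sterile gonads, which overlapped. Its log2 fold change of -0.04 (SE 0.20, adjusted p = 0.88) did not pass the test, and the difference between the subunit genes was not itself tested.

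**Figure D3:**
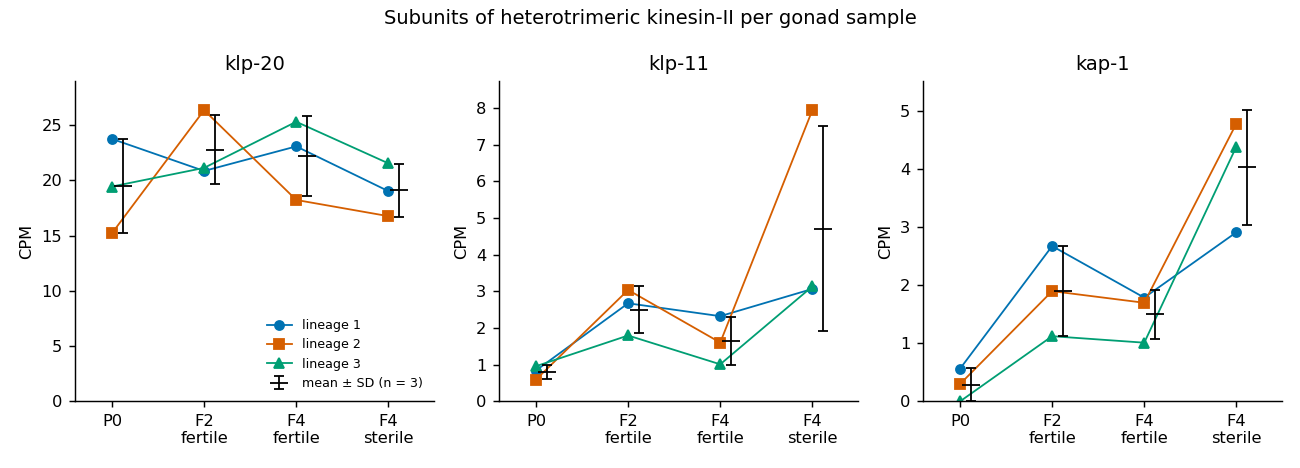
Level in CPM of the kinesin-II subunit genes *klp-20*, *klp-11* and *kap-1* by group, with the 3 lineages as joined points and mean ± SD (n = 3) as bars. *klp-20* averages 19.5 CPM in P0 and 19.1 CPM in F4 sterile gonads, while *klp-11* and *kap-1* are below 1 CPM in every P0 sample and at 2.91 CPM or more in every F4 sterile sample.

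CHE-3 is the heavy chain of the cytoplasmic dynein that returns IFT particles to the base. *che-3* (F18C12.1, chromosome I) had 2.11, 1.19 and 0.720 CPM in P0, 2.68, 2.28 and 1.57 CPM in F2 fertile, 1.43, 4.25 and 2.78 CPM in F4 fertile, and 4.29, 10.2 and 6.69 CPM in F4 sterile gonads. Every F4 sterile sample lay above every sample of the other groups, although F4 fertile lineage 2 at 4.25 CPM came close to the lowest of them. Its log2 fold change in F4 sterile against P0 gonads was 2.10 (SE 0.46, adjusted p = 0.0026). *xbx-1*, the light intermediate chain of the same motor, had 4, 1 and 0 counts in F4 sterile gonads and 0 in each P0 sample, so that the groups overlapped.

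*osm-3* (M02B7.3), the kinesin that extends the distal part of sensory cilia, was not among them. It had 16.2, 11.6 and 16.6 CPM in P0, 9.57, 17.6 and 15.3 CPM in F2 fertile, 6.44, 7.65 and 10.1 CPM in F4 fertile, and 5.98, 13.3 and 11.1 CPM in F4 sterile gonads. All F4 fertile samples lay below all P0 samples. Neither its log2 fold change of -0.87 (SE 0.32, adjusted p = 0.070) in F4 fertile nor that of -0.54 (SE 0.31, adjusted p = 0.19) in F4 sterile against P0 gonads passed the test. *osm-3* overlaps K09B3.1 on the other strand, which had 128 counts over the 12 samples against 869 for *osm-3*.

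**Figure D4:**
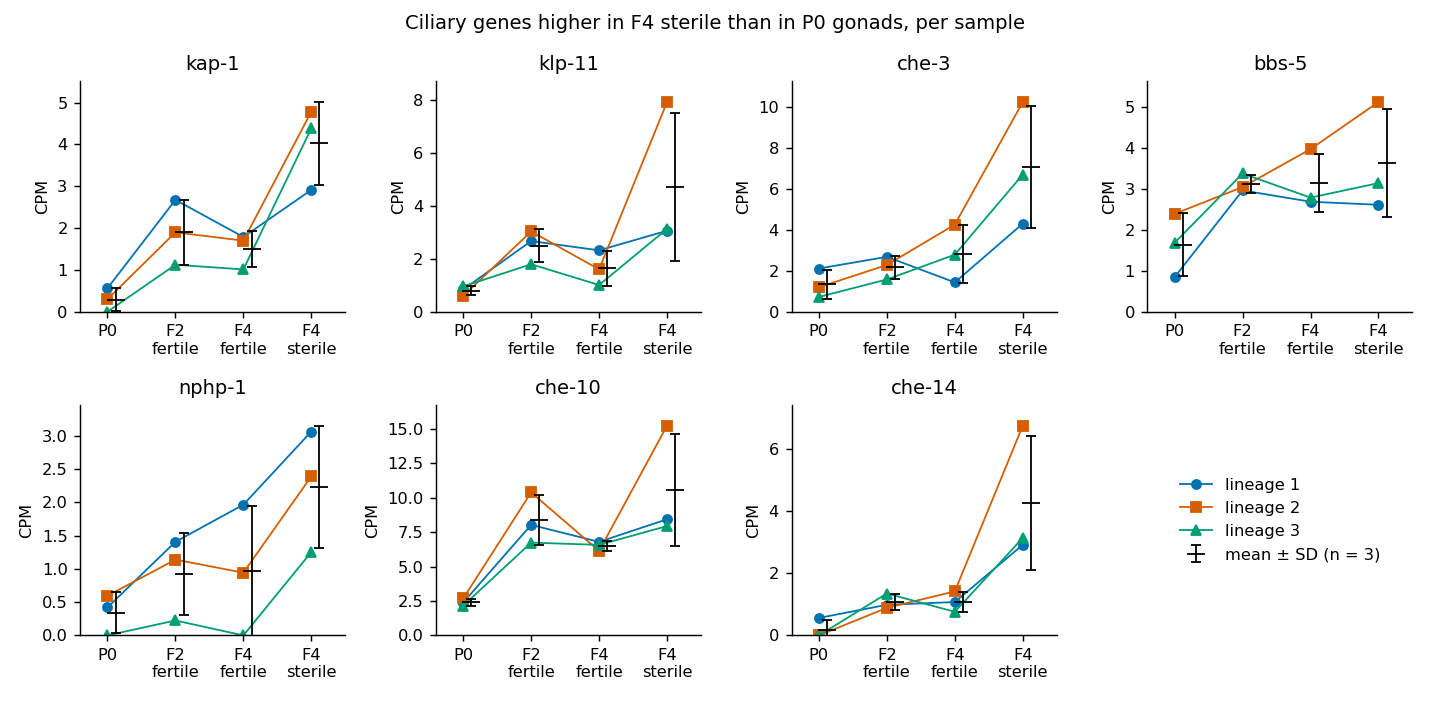
Level in CPM of the 7 ciliary genes that were higher in F4 sterile than in P0 gonads, by group, each panel on its own scale starting at 0. Joined points are the 3 lineages and bars show mean ± SD (n = 3, cut at 0 where they would pass below it); the F4 sterile sample of lineage 2 is the highest of the 3 for every gene but *nphp-1*.

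*che-14* (F56H1.1, chromosome I) encodes a protein related to Dispatched that acts in secretion at the apical side of epithelial cells, including the channel around sensory cilia. It was at 0.562, 0 and 0 CPM in P0, 0.986, 0.886 and 1.35 CPM in F2 fertile, 1.07, 1.42 and 0.759 CPM in F4 fertile, and 2.91, 6.74 and 3.14 CPM in F4 sterile gonads. Neither P0 nor the fertile groups reached the lowest F4 sterile value. The log2 fold change in F4 sterile against P0 gonads was 3.03 (SE 0.54, adjusted p = 0.00069). It rests on 96 counts in F4 sterile and 4 in P0 gonads. F2 fertile gonads had 20 counts and F4 fertile gonads 24. *che-14* may thus have passed the filter through the F4 sterile samples alone, and its adjusted p is given as a description.

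*che-10* (F35D11.11, chromosome II) encodes rootletin, the protein of the fibres at the base of cilia. It was at 2.39, 2.68 and 2.16 CPM in P0, 8.03, 10.4 and 6.74 CPM in F2 fertile, 6.79, 6.14 and 6.57 CPM in F4 fertile, and 8.43, 15.2 and 7.94 CPM in F4 sterile gonads. The step between P0 and F2 fertile was larger than any later one, and *che-10* was higher in F2 fertile gonads by 1.69 (SE 0.31, adjusted p = 0.0044), in F4 fertile by 1.32 (SE 0.31, adjusted p = 0.0097) and in F4 sterile by 2.01 (SE 0.31, adjusted p = 0.00023) on the log2 scale. It was the sole ciliary gene past the test against P0 in all 3 homozygous groups under each alternative tried.

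The other genes of this kind lay below the filter. DYF-7 anchors the tips of sensory dendrites, and *dyf-7* (chromosome X) had 8, 17 and 6 counts in F4 sterile gonads against 0 in each P0 sample. With P0 set at a floor of 3 counts, *dyf-7* was 7.38-fold higher. *dyf-5*, a kinase gene whose product limits cilium length, had 28 counts in F4 sterile and 2 in P0 gonads, a ratio of 10 after scaling for depth (95% interval 2.52 to 86.6). *tub-1*, the Tubby homologue, had 27 and 2 counts, a ratio of 9.64 (2.42 to 83.7). All F4 sterile samples were above all P0 samples for these genes, and also for *che-12*, at 1.28 ± 0.20 CPM in F4 sterile and 0.413 ± 0.252 CPM in P0 gonads (SD, n = 3 each). The intervals cover counting error only.

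Of the 13 IFT-B and IFT-A genes 3 were tested, and 0 passed in F4 sterile against P0 gonads by edgeR's adjusted or unadjusted p. Among the untested ones *dyf-11* was higher with DESeq2 and when every gene with at least 1 count entered the edgeR fit. In IFT-B, *osm-1* (T27B1.1, chromosome X) had 7.82, 14.5 and 11.9 CPM in F4 sterile, against 8.43, 5.37 and 11.03 CPM in P0 gonads, and *dyf-3* had 8.28, 3.59 and 1.88 CPM, against 3.37, 4.17 and 5.76 CPM. Both overlapped between the groups, with log2 fold changes of 0.44 (SE 0.29) and 0.07 (SE 0.42) that did not pass the test. The remaining 8 IFT-B genes were below the filter. Of these, *dyf-11* (chromosome X) had 6, 10 and 7 counts in F4 sterile gonads against 0 in each P0 sample. With P0 set at a floor of 3 counts, *dyf-11* was 5.48-fold higher. In the wider edgeR fit its log2 fold change was 2.16 (SE 0.60, adjusted p = 0.0030), and by DESeq2 its adjusted p was 0.010. *dyf-6* (chromosome X) had 18 counts against 1, a ratio of 12.9 (95% interval 2.03 to 536).

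*osm-5* averaged 1.31 CPM in F4 sterile and 0.220 CPM in P0 gonads without overlap. *osm-6*, *dyf-1*, *dyf-13*, *che-2* and *che-13* overlapped between these groups, and *che-13* averaged 0.145 CPM in F4 sterile and 0.174 CPM in P0 gonads. *osm-6* and *che-13* share their locus with genes on the other strand, and R31.2 beside *osm-6* had 7949 counts over the 12 samples against 50 for *osm-6*. In IFT-A, *dyf-2* had 4.91, 12.6 and 6.90 CPM in F4 sterile, against 7.30, 8.65 and 6.96 CPM in P0 gonads. Its log2 fold change of 0.11 (SE 0.30) did not pass the test, and *che-11* and *daf-10* were each below 1.4 CPM in every sample.

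BBSome genes were low throughout. *bbs-5* (R01H10.6, chromosome III) had 0.843, 2.39 and 1.68 CPM in P0, 2.96, 3.04 and 3.37 CPM in F2 fertile, 2.68, 3.96 and 2.78 CPM in F4 fertile, and 2.61, 5.11 and 3.14 CPM in F4 sterile gonads. Its level changed little after F2. The log2 fold change in F4 sterile against P0 gonads was 1.097 (SE 0.38, adjusted p = 0.032), and the call was lost in 8 of 18 alternatives, with adjusted p up to 0.20 and a log2 fold change down to 0.68. These were DESeq2, the fit without a filter, the fit of the 2 groups alone, and the fits without F2 fertile lineage 3, F4 fertile lineage 3, F4 sterile lineage 2, P0 lineage 1 or P0 lineage 3.

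The other BBSome genes were below the filter. *bbs-2* had 4, 6 and 2 counts in F4 sterile gonads against 0 in each P0 sample, 2.86-fold higher with P0 set at a floor of 3 counts. *bbs-8* had 3, 4 and 0 counts in F4 sterile gonads and 0 in each P0 sample, which overlapped. *osm-12* and *bbs-9* did not overlap between F4 sterile and P0 gonads, at 1.40 and 0.499 CPM for *osm-12* and 0.812 and 0.254 CPM for *bbs-9*, while *bbs-1* did overlap.

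At the transition zone, *nphp-1* (M28.7, chromosome II), which encodes a nephrocystin, was at 0.421, 0.596 and 0 CPM in P0, 1.41, 1.14 and 0.225 CPM in F2 fertile, 1.97, 0.944 and 0 CPM in F4 fertile, and 3.07, 2.39 and 1.25 CPM in F4 sterile gonads. Lineage 3 was the lowest in each group. Its log2 fold change in F4 sterile against P0 gonads was 1.98 (SE 0.67, adjusted p = 0.030). The call was lost without F4 sterile lineage 1 or 2 or without any one P0 sample, with adjusted p between 0.053 and 0.11.

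*mks-1* (chromosome III), a gene of the MKS module of the gate, had its highest level in F4 fertile gonads. It was at 0.562, 0.596 and 0.480 CPM in P0, 0.845, 2.03 and 0.674 CPM in F2 fertile, 1.79, 2.64 and 1.01 CPM in F4 fertile, and 1.23, 0.761 and 1.05 CPM in F4 sterile gonads. Against P0 its log2 fold change was 1.36 (SE 0.44, adjusted p = 0.044) in F4 fertile and 0.60 (SE 0.44, adjusted p = 0.29) in F4 sterile gonads. The first call was lost with DESeq2, without a filter, with lineage as a block (adjusted p = 0.053), with the library-name prefix as a covariate, and without any one of the P0 samples, F4 fertile lineages 1 or 2, F2 fertile lineages 1 or 3, or F4 sterile lineage 3, with adjusted p up to 0.23. *nphp-4* averaged 0.881 CPM in F4 sterile and 0.254 CPM in P0 gonads with overlap, and shares its locus with *col-158*, *pho-8* and R13H4.2.

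**Figure D5:**
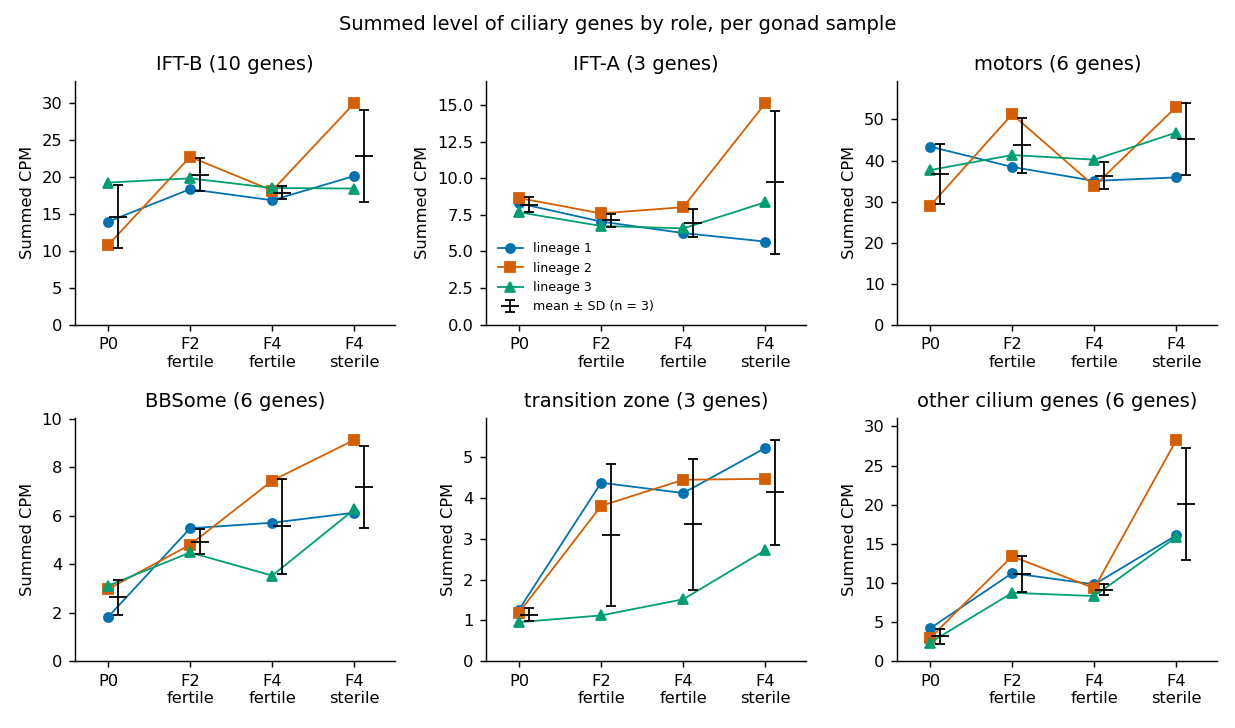
Summed CPM of the ciliary genes of each role by group, each panel on its own scale starting at 0, with the 3 lineages as joined points and mean ± SD (n = 3) as bars. The sum of the 6 other cilium genes averages 3.20 CPM in P0 and 20.1 CPM in F4 sterile gonads, and that of the 3 IFT-A genes 8.20 and 9.72 CPM. The 6 include *che-14* and *dyf-7*, which do not encode parts of the cilium itself.

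The earlier generations were compared with P0 in the same fit. In F2 fertile gonads 2 of the 13 tested ciliary genes were higher, *che-10* and *kap-1*, against 7.6% of all tested genes, and 0 were lower, against 1.33%. The unadjusted p of edgeR was under 0.05 for 5 genes, all higher, against 16.6% of tested genes higher and 6.13% lower. DESeq2 called 2 higher and 0 lower, against 7.67% and 2.43% of genes with an adjusted p. *kap-1* was higher by 1.81 on the log2 scale (SE 0.47, adjusted p = 0.029), and this call was lost without F2 fertile lineage 1 or 2 or P0 lineage 2 or 3, with adjusted p between 0.087 and 0.11. *klp-11* (1.34, SE 0.44, adjusted p = 0.083) passed only in the fit of the 2 groups alone, where *kap-1* did not pass the filter, and without F4 sterile lineage 2, with an adjusted p of 0.034 in both.

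In F4 fertile gonads 3 of the 13 were higher than in P0, *che-10*, *kap-1* and *mks-1*, against 13.7% of all tested genes, and 0 were lower, against 7.42%. DESeq2 called 1 higher, *che-10*, and 1 lower, *osm-3* (adjusted p = 0.032), against 12.6% and 8.8% of genes with an adjusted p. The unadjusted p of edgeR was under 0.05 for 5 higher genes and for *osm-3*, against 21.2% of tested genes higher and 13.6% lower. *osm-3* also passed with lineage as a block (adjusted p = 0.035), without a filter (0.025), in the fit of the 2 groups alone (0.022) and without F4 sterile lineage 1 (0.032) or 2 (0.037). *kap-1* was higher by 1.53 (SE 0.47, adjusted p = 0.035) and lost its call with DESeq2, without a filter, and without F2 fertile lineage 2, F4 fertile lineage 1 or 2, or P0 lineage 2 or 3, with adjusted p up to 0.11. In the fit of the 2 groups alone *kap-1* and *mks-1* did not pass the filter. Without a filter 1 gene was higher and 1 lower, against 4.19% and 2.56% of all genes with at least 1 count. Both comparisons share the P0 samples with that of F4 sterile gonads.

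Sterile and fertile gonads of the same generation were compared next. In F4 sterile against F4 fertile gonads 0 of the 13 tested ciliary genes were higher or lower by edgeR's adjusted p, against 2.85% and 0.434% of all tested genes, and DESeq2 also called 0, against 5.0% and 1.41% of genes with an adjusted p. At an unadjusted p under 0.05, 0 were lower and 5 were higher, *che-10*, *che-14*, *che-3*, *kap-1* and *klp-11*, against 6.27% of tested genes lower and 14.3% higher. Every F4 sterile sample lay above every F4 fertile sample for 12 of the 34 genes, against 7.68% of all genes with at least 1 count and 14.2% of tested genes. *che-14* differed by 1.68 on the log2 scale (SE 0.48, adjusted p = 0.068) and *klp-11* by 1.36 (SE 0.41, adjusted p = 0.080). *che-14* may have passed the filter through the F4 sterile samples alone. The counts above are therefore not read as shares of the 13.

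With the library-name prefix as a covariate 4 genes passed, *klp-11* (adjusted p = 0.025), *kap-1* (0.038), *che-3* (0.0079) and *che-14* (0.014), against 10.3% of tested genes higher in that fit. Without F4 sterile lineage 1 there were 3, *klp-11* (0.027), *che-3* (0.040) and *che-14* (0.027), against 9.52%. Without a filter it was *che-14* alone (0.030), against 2.86% of all genes with at least 1 count. In F4 fertile against F2 fertile gonads 0 ciliary genes passed by edgeR or DESeq2, against 0.0114% of tested genes higher and 0% lower, and *osm-3*, lower, was the one gene at an unadjusted p under 0.05, against 3.5% of tested genes higher and 5.74% lower at that p. DESeq2 gave 0.0392% of genes with an adjusted p higher and 0.0686% lower. In F4 sterile against F2 fertile gonads *che-3* (1.56, SE 0.43, adjusted p = 0.025) and *che-14* (1.76, SE 0.48, adjusted p = 0.023) were higher and 0 were lower, against 11.2% and 7.79% of all tested genes, and DESeq2 called the same number in each direction, against 11.2% and 7.83% of genes with an adjusted p. At edgeR's unadjusted p under 0.05 *kap-1* was higher as well and 0 were lower, against 19.1% and 14.4%. *kap-1* also passed with the library-name prefix as a covariate (1.11, adjusted p = 0.038), making 3 higher genes against 18.8% in that fit. The calls of *che-3* and *che-14* were lost without any one F2 fertile sample or without F4 sterile lineage 2, with adjusted p up to 0.098. Here too *che-14* may have entered the filtered fits through the F4 sterile samples alone.

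The X chromosome held 6 ciliary genes. Of the 971 tested X-linked genes, 73.8% were higher in F4 sterile than in P0 gonads, against 17.9% to 22.1% on the autosomes. *osm-1* was the one X-linked ciliary gene past the filter and did not pass the test. The other X-linked genes, *che-2*, *osm-5*, *dyf-6*, *dyf-11* and *dyf-7*, had 110 counts together in F4 sterile and 7 in P0 gonads, or 5.03 ± 1.78 and 0.394 ± 0.359 CPM (SD, n = 3 each). Among them *dyf-7* (2.44, SE 0.61, adjusted p = 0.00072) and *dyf-11* were higher in the edgeR fit of every gene with at least 1 count and with DESeq2.

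A further list of 39 ciliary genes, of which 36 were found, served for comparison. Of these, 9 were tested in F4 sterile against P0 gonads, 2 were higher and 3 were lower, against 26.4% and 16.8% of all tested genes. When every gene with at least 1 count entered the fit, 4 of the 36 were higher and 2 lower, with a median log2 fold change of 0.21, against 8.94% and 6.15% of all genes. *bbs-4*, another BBSome gene, was higher by 2.84 on the log2 scale (SE 0.39, adjusted p = 0.00011), and *ifta-1*, an IFT-A gene on the X chromosome, by 1.81 (SE 0.55, adjusted p = 0.016). *dyf-17* (-0.85), *nud-1* (-0.75) and *xbx-6* (-0.27) were lower. *bbs-4* and *nud-1* lie on chromosome III, where balancer sequence and *set-2* dose cannot be told apart. *nud-1* also serves dynein outside cilia and was at 98.2 CPM in F4 sterile and 165.2 CPM in P0 gonads, so that this list was not uniform in direction. The median log2 fold change of the 9 was -0.04, against 0.05 for all tested genes.

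Markers of cell types moved as well. Of 18 pan-neuronal genes 12 were tested, and in F4 sterile against P0 gonads 8 were higher and 1, *tbb-1*, was lower, against 26.4% and 16.8% of all tested genes. *unc-18*, a gene for synaptic vesicle fusion, was higher by 2.59 on the log2 scale (SE 0.31, adjusted p = 3.6e-05). *unc-64* and *unc-119* were higher by 2.43 (SE 0.40) and 2.39 (SE 0.36). These genes and *tbb-1* lie on chromosome III, where balancer sequence and *set-2* dose cannot be told apart. *unc-64* also overlaps *set-25* on the other strand, so that its counts are uncertain. *unc-18* lies on the X chromosome, where 73.8% of tested genes were higher in F4 sterile than in P0 gonads. The summed neuronal level lay between 1121 and 1288 CPM in F4 sterile and between 1315 and 1490 CPM in P0 gonads, most of it from *tbb-1*. Of the 18 pan-neuronal genes, *rab-3*, *snt-1* and *rgef-1* averaged 0.990, 0.392 and 0.680 CPM in F4 sterile, against 0.0468, 0.0936 and 0.333 CPM in P0 gonads. These genes were low in both groups and do not stand for the whole list. *rab-3* also overlaps another gene on the other strand, so that its counts are uncertain too. In P0 gonads 0 of the 18 genes lacked a count. The part of neuronal transcripts in the change of the ciliary genes was not tested.

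Of 15 genes for signalling in cilia 1 was tested, *odr-4*, which was at 59.8 CPM in F4 sterile and 59.0 CPM in P0 gonads and did not pass. The counts of the lists that follow stand against the same 26.4% of all tested genes higher and 16.8% lower. Of 12 tested germline genes 9 were lower and 1, *glp-1*, was higher in F4 sterile than in P0 gonads, and their sum lay between 6491 and 8354 CPM in F4 sterile and between 11757 and 12241 CPM in P0 gonads. For the somatic gonad, 3 of 7 tested markers were higher and 2 lower, with sums of 1439 to 1523 CPM in F4 sterile and 1978 to 2094 CPM in P0 gonads. Epidermal markers (206 to 245 CPM in F4 sterile, 217 to 239 CPM in P0) had 1 higher and 2 lower of 5 tested.

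In the other lists the F4 sterile samples differed between lineages. Muscle markers summed to 96.5, 378 and 181 CPM in F4 sterile and 178, 151 and 113 CPM in P0 gonads, with 1 of 11 tested genes higher, and 5 of 12 were higher when every gene with at least 1 count entered the fit, against 8.94% of all genes. Intestinal markers summed to 1038, 5853 and 4167 CPM in F4 sterile and 3457, 4163 and 3248 CPM in P0 gonads, with 1 of 7 tested genes higher. Lineage 1 was far below the other lineages there in F4 sterile gonads. It was also the lowest in F4 fertile gonads, at 1163 CPM for intestinal and 73.5 CPM for muscle markers. Sperm markers summed to 7.51, 21.97 and 11.1 CPM in F4 sterile and 7.44, 5.37 and 3.598 CPM in P0 gonads, with 1 higher, *fer-1*, of 2 tested. Lineage 2 was thus the highest F4 sterile sample in each of these lists, as it was for 6 of the 7 higher ciliary genes, and the part of these cell types in the result was not tested.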

How the data were processed

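RNA of dissected gonads was sequenced after depletion of ribosomal RNA, from 12 samples of 4 groups and 3 lineages. The authors mapped reads with TopHat2 to WS220 and deposited HTSeq counts per gene, without normalization. The strand setting is not given in the sources used here, and the library kit does not mark strand, so that genes which overlap on opposite strands are uncertain. A second deposited table holds normalized signal values made by the authors, which were compared with the counts, and their log2 fold changes and adjusted p-values, which were not used. Reads on no gene (8.23% to 14.4%) and ambiguous reads (1.76% to 2.24%) were left out.

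The counts entered 1 quasi-likelihood fit of all samples in edgeR 4.0.16 under R 4.3.3, after its expression filter and TMM scaling, without a lineage term and with a prior count of 2, and p-values were adjusted by Benjamini-Hochberg over 8746 genes with a threshold of 0.05. Standard errors are the log2 fold change divided by the root of the F statistic. The test was checked on simulated counts. A fold against a group without counts used a floor of 3 counts over the group. It leaves out counting error in the other group and is not a bound. Alternatives were RLE size factors, DESeq2 1.42.0, every gene with at least 1 count (26894 genes), lineage as a block, the library-name prefix as a covariate, the compared samples alone, and each sample left out. Numbers pair the samples because the labels start each lineage from its own animals. Deviations from group means correlated above 0.1 in 7 of 18 same-lineage pairs (mean 0.0953, against -0.0477 for different lineages). All 7 pairs also shared a library-name prefix. Same-lineage pairs under different prefixes reached at most 0.0350, and different-lineage pairs under a shared prefix reached 0.268. These correlations therefore do not show pairing by lineage apart from the prefix.

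The members and lists were chosen with earlier results of these data known. Values in each sample are given for *daf-19* and for genes past the threshold in F4 sterile against P0 or F4 fertile gonads. A planned search for X-box motifs was not run, because no promoter sequence was used here.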

Additional observations from a re-analysis of the deposited data

How the results depend on the processing

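*kap-1*, *klp-11*, *che-3*, *che-10* and *che-14* stayed higher in F4 sterile than in P0 gonads in all 18 alternatives, and *daf-19* kept its direction in each. The number of ciliary genes higher in that comparison was 7 with lineage as a replicate block, 11 without a filter and 5 to 7 with 1 sample left out. Among all genes, 2324 of 8746 were higher with the block and 2403 of 26894 without a filter. With 1 sample left out it was 1742 to 2460, with 8754 to 9375 genes tested. In F4 fertile against P0 gonads 1 was higher with DESeq2, without a filter and in the fit of the compared samples alone, and 1 (*osm-3*) was lower in these fits and with the block. Among all genes, 12.6%, 4.19% and 1291 of 7674 were higher in these fits. Lower were 8.8%, 2.56% and 1032 of 7674, and 743 of 8746 with the block. With 1 sample left out, 1 to 4 were higher and 0 to 1 lower in F4 fertile against P0 gonads, and 1 to 3 were higher in F2 fertile against P0 gonads. Among all genes, 659 to 1351 were higher and 259 to 996 lower in the first comparison. In the second, 256 to 781 were higher. In F4 sterile against F4 fertile gonads 1 was higher without a filter, 4 with the library-name prefix as a covariate and 0 to 3 with 1 sample left out. Among all genes, 2.86% were higher without a filter, 10.3% with the covariate and 2.85% in the main fit. In F4 sterile against F2 fertile gonads 0 to 2 were higher with 1 sample left out, where the main fit had 11.2% of all tested genes higher. The block changed no other call than those of *mks-1* and *osm-3* in F4 fertile against P0 gonads. The cause of these shifts was not tested.

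With 1 sample left out, the log2 fold change of *daf-19* ranged from 2.77 to 3.11 in F4 sterile against P0, from 1.45 to 1.87 in F4 sterile against F2 fertile and from 0.54 to 0.92 in F4 fertile against F2 fertile gonads. The lowest of the first range came without P0 lineage 2 and the highest of the others without F2 fertile lineage 2. Without the 3 highest genes the summed level of the ciliary genes averaged 23.9 CPM for P0, 41.9 CPM for F2 fertile, 39.2 CPM for F4 fertile and 68.6 CPM for F4 sterile. The search for X-box motifs was not run. Depth limits the 21 genes below the filter, which had 12 to 90 counts each over the 12 samples, so that small differences in these genes were not detectable at this depth. P-values of the main fit rest on the spread between the 3 lineages within groups, pooled over the 4 groups. That spread also holds differences between library-name prefixes.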

Other observations

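Among genes below the filter, several that work in ciliated neurons had most of their counts in F4 sterile gonads; these were picked after their values were seen and no test is given. *tbb-4*, a beta-tubulin gene used in cilia, averaged 1.89 ± 0.951 CPM in F4 sterile and 0.0800 ± 0.138 CPM in P0 gonads (SD, n = 3 each). It lies on the X chromosome, where 73.8% of tested genes were higher in F4 sterile than in P0 gonads. *fkh-8*, a forkhead factor gene active in ciliated neurons, averaged 1.38 ± 0.876 CPM in F4 sterile and 0.193 ± 0.167 CPM in P0 gonads. *osm-9*, a TRPV channel gene, averaged 1.14 ± 0.473 and 0.0800 ± 0.138 CPM in the same groups, and *pkd-2*, a polycystin gene, averaged 0.952 ± 0.303 and 0.127 ± 0.121 CPM. The channel genes *tax-2*, *tax-4* and *ocr-2* stayed at or below 0.440 CPM on average in every group. In F4 sterile against P0 gonads, 2 of the 15 genes for signalling in cilia were higher and 0 lower without a filter. Of all genes in that fit, 8.94% were higher and 6.15% lower. The 36 further ciliary genes summed to 441 CPM in P0 and 353 CPM in F4 sterile gonads.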
